A study of Homo sapiens with 12 samples.

Results

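Transcript levels of the human aminoacyl-tRNA synthetase genes were examined in Jurkat cells, a leukaemic T cell line, as 37 genes of which 20 encode cytosolic and 17 encode mitochondrial enzymes. They were taken by gene symbol: the cytosolic set holds 1 gene for each amino acid, except that phenylalanine needs a pair (FARSA and FARSB) and that EPRS1 covers both glutamate and proline, and the mitochondrial set holds the genes whose symbol ends in ARS2. All 37 were listed in both deposited tables, among 55514 genes in the first and 44389 in the second. All 37 also averaged 1 TPM or more in each table of 6 libraries, the level required for testing, which 16588 and 15148 genes reached.

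The study used doxycycline to induce the transcription factor gene ZNF683, which encodes Hobit, and sequenced RNA of 12 libraries. The first table holds 3 libraries whose genotype label is doxycycline-induced ZNF683 and 3 labelled Mock, and the labels do not state whether the Mock cells were given doxycycline. The second table holds 3 libraries of Hobit-titled cells grown with doxycycline (Dox+, 1 ug/uL as labelled) and 3 grown without it (Dox-). All 4 groups are the same cell line in RPMI with fetal calf serum. The labels name neither the vector nor whether a line is a clone, and they do not say that libraries of a group were grown as separate cultures. The p-values below therefore measure the spread between libraries, which may be technical. Values are in TPM, a length-normalized abundance that can be compared between genes. Library values are given in the order 1, 2, 3. The read depth is unknown.

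An aminoacyl-tRNA synthetase joins an amino acid to its tRNA, so that the ribosome can read the codon. Cytosol and mitochondria keep largely separate enzymes, all encoded in the nucleus, although GARS1 and KARS1 supply both compartments from a single gene each, and the mitochondrion has no glutaminyl enzyme and charges that tRNA through EARS2 and an amidotransferase. Many cytosolic synthetase genes are known targets of ATF4, the transcription factor made when eIF2 kinases sense amino acid shortage or other stress, and ATF4 binds C/EBP-ATF response elements. Of the 20 cytosolic genes, 12 are commonly listed as responsive to ATF4 (AARS1, CARS1, EPRS1, GARS1, IARS1, LARS1, MARS1, NARS1, SARS1, TARS1, WARS1 and YARS1). They are called ATF4-linked here, from that general knowledge and not from a measurement in these cells. Like all gene lists here, this list was chosen with earlier results of these data known, so it is not independent of them.

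The promoters are shown because the genes that held the ATF4-type letters were mostly the ones whose doxycycline groups were apart after scaling, as described further on. A RefSeq window of 250 bases before to 50 after the start (GRCh38.p14) was at hand for 30 of the 37 genes. The letters TGATGNAA were searched on both strands. They were found in 8 of the 30 genes (26.7%), against 4.46% of all genes with such a window and 2.71% of the genes tested here that have one. By class they were in 7 of 16 cytosolic genes (43.8%) and in 1 of 14 mitochondrial genes (7.14%), YARS2. All 7 cytosolic genes were among the 10 ATF4-linked genes with a window (70%), and 0 of the 6 other cytosolic genes held them. Each stretch below is 28 bases, printed 5′ to 3′ on the strand that carries the letters, which are in capitals.
AARS1 (chr16:70289676-70289703, plus strand): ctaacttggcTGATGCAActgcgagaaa
CARS1 (chr11:3057408-3057435, plus strand): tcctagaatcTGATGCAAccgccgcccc
GARS1 (chr7:30594835-30594862, minus strand): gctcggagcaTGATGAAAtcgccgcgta
IARS1 (chr9:92293693-92293720, plus strand): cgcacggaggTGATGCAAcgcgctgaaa
MARS1 (chr12:57488054-57488081, minus strand): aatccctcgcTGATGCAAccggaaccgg
NARS1 (chr18:57621805-57621832, minus strand): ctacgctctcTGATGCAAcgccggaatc
TARS1 (chr5:33440957-33440984, minus strand): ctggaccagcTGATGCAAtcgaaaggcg
YARS2 (chr12:32756077-32756104, minus strand): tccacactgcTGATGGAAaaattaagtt
In the direction of transcription the 8 letters began 187, 33 and 13 bases before the RefSeq start in AARS1, GARS1 and IARS1. They spanned the start itself in CARS1 and MARS1, and began at base 3 and base 15 of the transcript in TARS1 and NARS1. In YARS2 they began 197 bases before the start. A match of letters is a description and not a bound site, and windows without them say only that these letters are not in that window. Genes with no entry included LARS1, VARS1, YARS1, AARS2 and VARS2.

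Cytosolic synthetase transcripts were, as a class, more abundant than mitochondrial ones in every library. In the ZNF683 and Mock table the 20 cytosolic genes had a median of 127.6 TPM (median of the gene means over 6 libraries) and the 17 mitochondrial genes 29.7 TPM, and 17 cytosolic genes lay above IARS2, the highest mitochondrial gene. In the doxycycline table the medians were 127.4 and 18.4 TPM, and 16 cytosolic genes lay above IARS2. The highest gene was FARSA, the catalytic subunit of the phenylalanyl enzyme, in the first table (285 ± 57.1 TPM, SD, n = 6 libraries) and MARS1, the methionyl enzyme, in the second (239 ± 141 TPM). FARSB, the partner subunit of FARSA, stood far lower at 44.0 ± 9.69 and 37.4 ± 13.1 TPM.

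VARS1, the valyl enzyme, was the lowest cytosolic gene in both tables. FARSB and QARS1, the glutaminyl enzyme, also lay below IARS2 in both, and HARS1 did in the second. VARS1 had 22.7, 32.2 and 24.1 TPM in ZNF683 and 15.3, 13.5 and 26.2 TPM in Mock. Its mitochondrial counterpart VARS2 had 33.6, 29.8 and 26.0 TPM in ZNF683 and 22.5, 24.6 and 32.9 TPM in Mock. VARS1 was thus below VARS2 in 5 of those 6 libraries, ZNF683 library 2 being the exception, and 11 of 17 mitochondrial genes had a higher mean than VARS1. In the doxycycline table VARS1 was above VARS2 in all 6 libraries, by 1.12- to 1.59-fold. At the other end MARS2, the mitochondrial methionyl enzyme, was the lowest member of all, at 9.53 ± 2.81 TPM in the first table and 6.35 ± 3.05 TPM in the second.

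**Figure D1:**
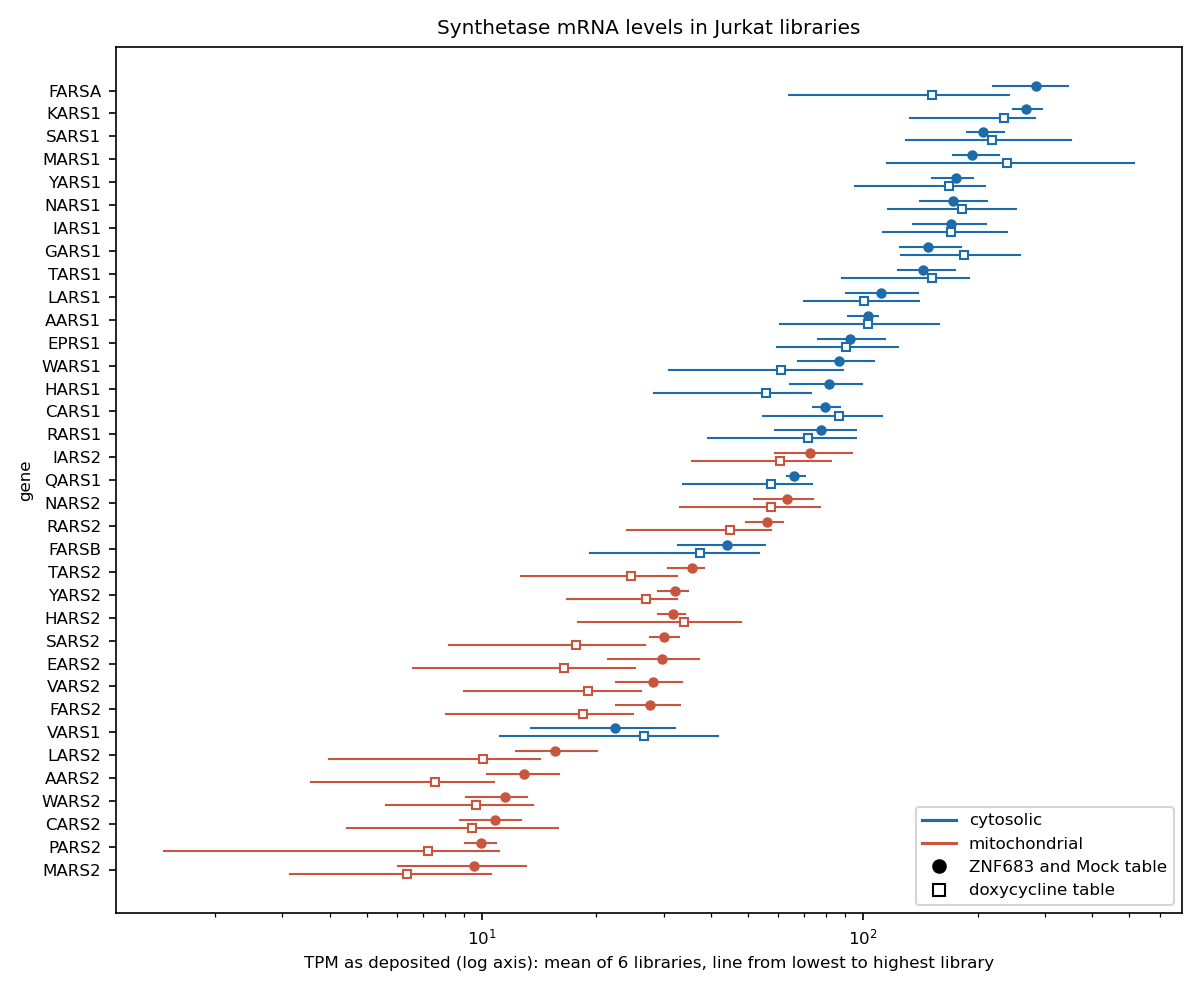
Mean TPM of 35 synthetase genes over the 6 libraries of each table (x axis, log scale), with lines from the lowest to the highest library; genes are ordered by their mean in the ZNF683 and Mock table (filled circles), and open squares are the doxycycline table. Cytosolic genes (blue) fill the upper end, QARS1, FARSB and VARS1 lie among the mitochondrial genes (red), and most lines are longer in the doxycycline table.

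Before the comparisons, facts of the libraries that touch them are these. In the ZNF683 and Mock table all libraries correlated at 0.976 to 0.992 (log2(TPM + 1), all tested genes). In the doxycycline table the non-coding transcript AL135790.1 took 50.7% of all TPM in Dox- library 1, against 6.65% to 12.8% in the other 5, which leaves less of the fixed total for the other genes there, and Dox- library 2 correlated with the others at only 0.898 to 0.920 and held 637 TPM of the heat-shock gene HSPA6, which was below 1 TPM in the other 5. Scaling each library by the median of its gene ratios (median-of-ratios) removes the first feature. Its factors ran from 0.58 (Dox- 1) to 1.2 (Dox- 3) there and from 0.93 to 1.04 in the first table. It moved the median log2 change of all genes tested from 0.32 to 0.00 for doxycycline. Values scaled in this way are called scaled TPM. ZNF683 itself was at 1.17, 1.76 and 1.04 TPM in the ZNF683 libraries and 0.715, 1.59 and 0.681 TPM in the Mock libraries, and at 0.453, 0.774 and 0.571 TPM (Dox+) and 0.115, 0.239 and 0.451 TPM (Dox-), so it does not check the labels and directions are between libraries as labelled. All 10 T cell markers had a mean of at least 1 TPM in both tables. In the doxycycline table their summed level was 3376 to 3695 TPM in Dox+ and 1384 to 2976 TPM in Dox-. That of 3 fibroblast markers was 1.40 to 1.51 and 0.438 to 18.1 TPM. That of the erythroid markers was 0.435 to 1.57 and 0.283 to 20.3 TPM. The endothelial markers summed to 72.0 to 76.2 TPM in Dox+ and 11.7 to 81.45 TPM in Dox-, mostly PECAM1 (11.5 to 81.3 TPM). The B cell markers summed to 26.2 to 30.2 and 9.26 to 24.5 TPM, mostly CD79A (8.9 to 29.9 TPM). Of the NK and epithelial markers, KLRF1, FCGR3A, EPCAM and KRT19 were listed at 0 in at least 1 library. In the same lists KLRD1, NCAM1 and CDH1 reached 1.81, 1.38 and 1.02 TPM. The part of these features in the results was not tested, except where values with and without a library or scaling are given.

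Between the ZNF683 and Mock libraries no synthetase gene passed the test, although most stood slightly higher in the ZNF683 libraries. With limma on log2(TPM + 1) and Benjamini-Hochberg adjustment over all genes, 0 of 37 members had an adjusted p under 0.05 (0.0301% of genes tested did), and 1 had an unadjusted p under 0.05 and was higher (6.55% of genes tested were higher at that p) with 0 lower (6.42%). The log2 change was positive for 33 of the 37 genes, 18 of 20 cytosolic and 15 of 17 mitochondrial. Its median was 0.15 for the cytosolic genes, 0.16 for the mitochondrial genes and 0.03 for all genes tested. After scaling these medians were 0.11, 0.13 and -0.00037, with 31 of 37 positive. On scaled values limma again called 0 members, with 1 higher (6.65% of genes tested) and 0 lower (7.53%) at an unadjusted p under 0.05. In such bulk libraries fewer cells of a type and less RNA per cell cannot be told apart.

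HARS1, the histidyl enzyme (GENCODE v29, GRCh38, chromosome 5, 140673904 to 140691862), had the smallest p of the members. It had 99.7, 95.5 and 79.0 TPM in ZNF683 and 64.4, 66.6 and 84.9 TPM in Mock. All 3 ZNF683 values were above Mock libraries 1 and 2, while Mock library 3 lay above the lowest of them. The log2 change was 0.34 ± 0.14 (unadjusted p = 0.0413, limma adjusted p = 0.370). The groups did not overlap in 1 member, which was higher in ZNF683 (8.71% of genes tested were apart and higher), and 0 members were apart and lower (8.51%). After scaling 0 members were apart and higher, against 9.44% of genes tested.

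The other cytosolic genes with the smallest p shared the shape of HARS1. WARS1, the tryptophanyl enzyme and an interferon target in many cells, had 107, 97.8 and 83.4 TPM in ZNF683 and 67.4, 68.5 and 96.5 TPM in Mock (log2 change 0.32 ± 0.16). FARSB had 55.4, 50.9 and 41.2 TPM in ZNF683 and 32.8, 33.2 and 50.4 TPM in Mock (log2 change 0.35 ± 0.19). RARS1, the arginyl enzyme, had 95.8, 87.1 and 71.7 TPM in ZNF683 and 58.8, 63.4 and 88.5 TPM in Mock (log2 change 0.28 ± 0.17). In all 3 genes ZNF683 library 1 was the highest and Mock library 3 lay above ZNF683 library 3, so the groups overlapped. VARS1 had the largest difference of the members (log2 change 0.54 ± 0.24, limma adjusted p = 0.390), and there too Mock library 3 was above ZNF683 libraries 1 and 3. FARSA had 334, 344 and 248 TPM in ZNF683 and 219.6, 233 and 329 TPM in Mock (log2 change 0.25 ± 0.19), with Mock library 3 again among the ZNF683 values.

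Some mitochondrial genes had a similar order of libraries, and ZNF683 library 1 was the highest for 11 of the 17 (scaled TPM). MARS2 had 13.1, 11.2 and 9.17 TPM in ZNF683 and 6.52, 6.05 and 11.2 TPM in Mock (log2 change 0.48 ± 0.22, limma adjusted p = 0.403). IARS2, the mitochondrial isoleucyl enzyme, had 93.3, 76.7 and 64.9 TPM in ZNF683 and 58.9, 64.0 and 78.3 TPM in Mock (log2 change 0.22 ± 0.16). In both ZNF683 library 1 was highest, Mock libraries 1 and 2 were lowest, and Mock library 3 was above ZNF683 library 3. FARS2 and WARS2, for phenylalanine and tryptophan, had log2 changes of 0.25 ± 0.15 and 0.24 ± 0.15.

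Mock library 3 lay above the lowest ZNF683 library for all 8 members given above by library or by order. ZNF683 library 1 was the highest of the 6 libraries for 27 of the 37 members and Mock library 2 the lowest for 23 (scaled TPM). Without Mock library 3, 21 members had non-overlapping groups and were higher (11 cytosolic and 10 mitochondrial), beside 26.7% of all genes tested, since 3 against 2 libraries separate more easily, and after scaling also 21 (23.0% of all genes). Without ZNF683 library 3 the count was 15 (25.2%), and 9 after scaling (21.6%). It was 1 in each of the other 4 omissions on the deposited values, when 10.1% to 12.9% of all genes were apart and higher. Without Mock library 3, 12 members were higher at an unadjusted p under 0.05 by limma (13.8% of all genes were), and without ZNF683 library 3, 8 were (11.3%), and 0 passed the adjusted test in any omission.

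Dox+ against Dox- also gave no called synthetase gene, and here the cytosolic and mitochondrial genes lay on opposite sides of the other genes. With limma as before 0 of 37 members passed (0.396% of genes tested did). At an unadjusted p under 0.05 there were 2 members higher, both mitochondrial (4.69% of genes tested were higher), and 0 lower (1.65%). On the deposited values 0 members had non-overlapping groups in either direction (7.91% of genes tested were apart and higher, 0.891% apart and lower). The median log2 change was 0.15 for the cytosolic genes, 0.56 for the mitochondrial genes and 0.32 for all genes tested. Relative to all genes the cytosolic median was thus -0.16 and the mitochondrial median 0.24. Of the members, 14 of 20 cytosolic and 2 of 17 mitochondrial genes lay below the median of all genes. The ATF4-linked genes accounted for 11 of those 14, with a median of 0.02 (-0.29 relative to all genes), while the 8 other cytosolic genes had a median of 0.38. The prior degrees of freedom that limma estimated here were unlimited, so a gene's p rests on the spread of genes of like level and hardly on its own.

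PARS2, the mitochondrial prolyl enzyme (chromosome 1, 54756898 to 54764514), had the smallest p, with 8.02, 8.55 and 10.2 TPM in Dox+ and 4.05, 1.47 and 11.1 TPM in Dox-. The log2 change was 0.89 ± 0.42 (unadjusted p = 0.0326, limma adjusted p = 0.737). Dox- library 3 had the highest value of all 6 libraries and Dox- library 2 the lowest, so the Dox+ values lay within the range of the Dox- values. EARS2, the mitochondrial glutamyl enzyme, had 18.0, 18.5 and 23.2 TPM in Dox+ and 7.29, 6.59 and 25.3 TPM in Dox- (log2 change 0.81 ± 0.43). LARS2, the mitochondrial leucyl enzyme, had 11.2, 12.2 and 14.2 TPM in Dox+ and 5.51, 3.97 and 13.5 TPM in Dox- (log2 change 0.79 ± 0.42). Both had low Dox- libraries 1 and 2 beside a Dox- library 3 at the Dox+ level. IARS2 had 67.1, 68.3 and 74.5 TPM in Dox+ and 36.1, 35.7 and 82.2 TPM in Dox- and MARS2 had 5.47, 6.21 and 9.31 TPM in Dox+ and 3.43, 3.13 and 10.6 TPM in Dox-, with log2 changes of 0.55 ± 0.43 and 0.39 ± 0.42.

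After scaling, the low value of Dox- library 1 went away and that of Dox- library 2 did not. Scaled PARS2 was 6.96, 7.45 and 9.02 scaled TPM in Dox+ and 6.99, 1.47 and 9.26 scaled TPM in Dox-, and Dox- library 1 now stood with the Dox+ libraries. Dox- library 2 was the lowest of the 6 for 15 of the 17 mitochondrial members. The other 2 were CARS2 and HARS2, the mitochondrial cysteinyl and histidyl enzymes, for which it was the highest: scaled CARS2 was 8.09, 8.20 and 7.56 scaled TPM in Dox+ and 7.65, 15.9 and 7.60 scaled TPM in Dox- and scaled HARS2 was 30.8, 31.2 and 28.0 scaled TPM in Dox+ and 30.8, 47.8 and 29.7 scaled TPM in Dox-. The scaled median of the mitochondrial genes was 0.20 with 14 of 17 positive, and without Dox- library 2 it was -0.0050 with 8 of 17 positive. On the deposited values the mitochondrial median relative to all genes went from 0.24 to 0.03 without that library. The scaled log2 change of PARS2 went from 0.58 ± 0.51 to -0.045 without it, so the mitochondrial difference rested on that library.

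**Figure D2:**
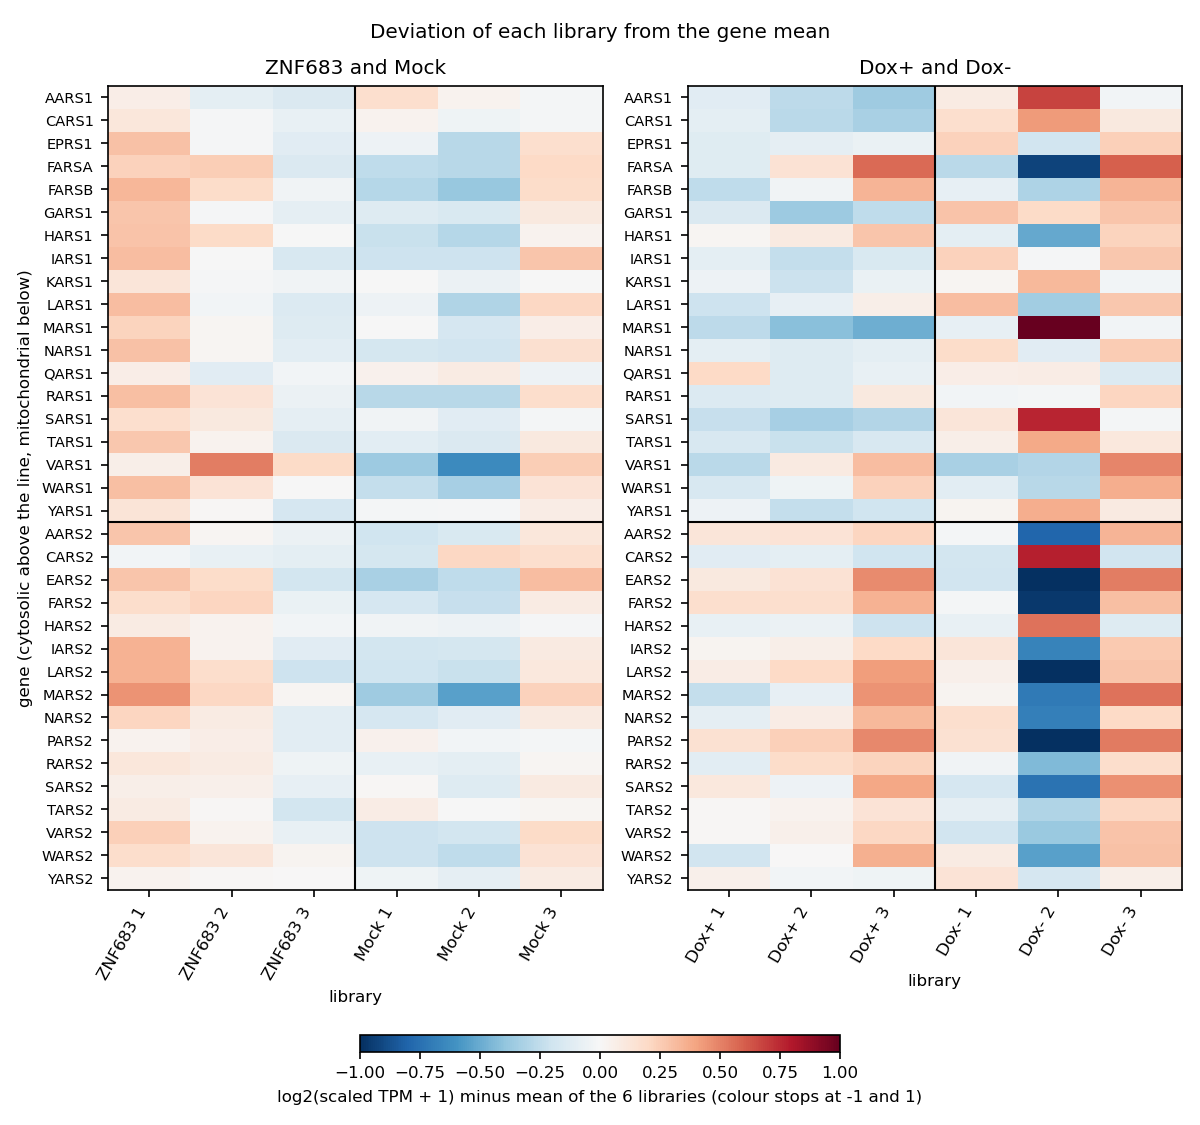
Deviation of log2(scaled TPM + 1) from the gene's mean over the 6 libraries of its table, in colour (red above, blue below, stopping at -1 and 1), for 19 cytosolic (above the line) and 16 mitochondrial genes in each library. Dox- library 2 holds the lowest value for 14 of these 16 mitochondrial genes, and ZNF683 library 1 the highest for 25 of these 35 genes.

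The cytosolic genes gave a different pattern after scaling. Of the 20, 9 had non-overlapping groups, all lower with doxycycline (5.86% of genes tested were apart and lower after scaling, 5.82% apart and higher), and 0 of the 17 mitochondrial genes did. They were AARS1, CARS1, GARS1, IARS1, KARS1, MARS1, SARS1, TARS1 and YARS1, and 8 of them are among the 12 ATF4-linked genes, KARS1 being the other. They are described in full because their groups were apart, so they were chosen after their values were seen. With limma on scaled values 0 members passed the adjusted test (adjusted p of 0.754 for all 9, and 0% of all genes tested passed), 6 were lower at an unadjusted p under 0.05 (AARS1, CARS1, GARS1, IARS1, SARS1 and TARS1; 1.91% of genes tested were lower at that p) and 0 were higher (1.18%). The median scaled log2 change was -0.34 for the ATF4-linked genes with 11 of 12 negative, 0.02 for the 8 other cytosolic genes with 4 negative, and 0.00 for all genes.

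GARS1, the glycyl enzyme, had the smallest unadjusted p of the 9. Its scaled values were 161, 138 and 149 scaled TPM in Dox+ and 218, 204 and 216 scaled TPM in Dox-. The highest Dox+ library was below the lowest Dox- library by 42.8 scaled TPM, and no Dox- library stood out. The scaled log2 change was -0.51 ± 0.12 (unadjusted p = 0.00375, limma adjusted p = 0.754). On the deposited values the same gene had 186, 159 and 169 TPM in Dox+ and 126, 204 and 258 TPM in Dox-, where Dox- library 1 was the lowest of the 6 and the groups overlapped. IARS1, the isoleucyl enzyme, was similar, at 155, 140.1 and 149 scaled TPM in Dox+ and 195, 165 and 199.6 scaled TPM in Dox- (scaled log2 change -0.33 ± 0.13).

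In the other 7 genes Dox- library 2 was the highest of the 6. MARS1 was the extreme case, with 176, 158 and 151 scaled TPM in Dox+ and 199.7, 513 and 207 scaled TPM in Dox-. Dox- libraries 1 and 3 stood much closer to the Dox+ values than Dox- library 2 did, and the scaled log2 change was -0.78 ± 0.36. SARS1, the seryl enzyme (chromosome 1, 109213918 to 109238169), had 176, 163 and 168 scaled TPM in Dox+ and 224, 351 and 204 scaled TPM in Dox- (scaled log2 change -0.57 ± 0.21). AARS1, the alanyl enzyme, had 91.0, 82.1 and 77.0 scaled TPM in Dox+ and 105, 158 and 96.6 scaled TPM in Dox- (scaled log2 change -0.49 ± 0.20). In these 3 genes Dox- library 2 stood well above the other Dox- libraries. CARS1, the cysteinyl enzyme, had 78.0, 69.2 and 66.7 scaled TPM in Dox+ and 94.3, 113 and 89.6 scaled TPM in Dox- (scaled log2 change -0.46 ± 0.14). TARS1, the threonyl enzyme, had 131, 125 and 131 scaled TPM in Dox+ and 152, 190.2 and 157 scaled TPM in Dox- (scaled log2 change -0.36 ± 0.13). Their Dox+ libraries were close together and below all 3 Dox- libraries. YARS1, the tyrosyl enzyme (chromosome 1, 32775237 to 32818153), had 156, 137 and 141 scaled TPM in Dox+ and 165, 209 and 172 scaled TPM in Dox- (scaled log2 change -0.32 ± 0.14). KARS1, the lysyl enzyme (chromosome 16, 75627474 to 75648643), had the smallest difference, with 219, 195 and 216 scaled TPM in Dox+ and 229.6, 284 and 222 scaled TPM in Dox- (scaled log2 change -0.22 ± 0.14), and its nearest libraries, Dox+ 1 and Dox- 3, differed by 3.6 scaled TPM.

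**Figure D3:**
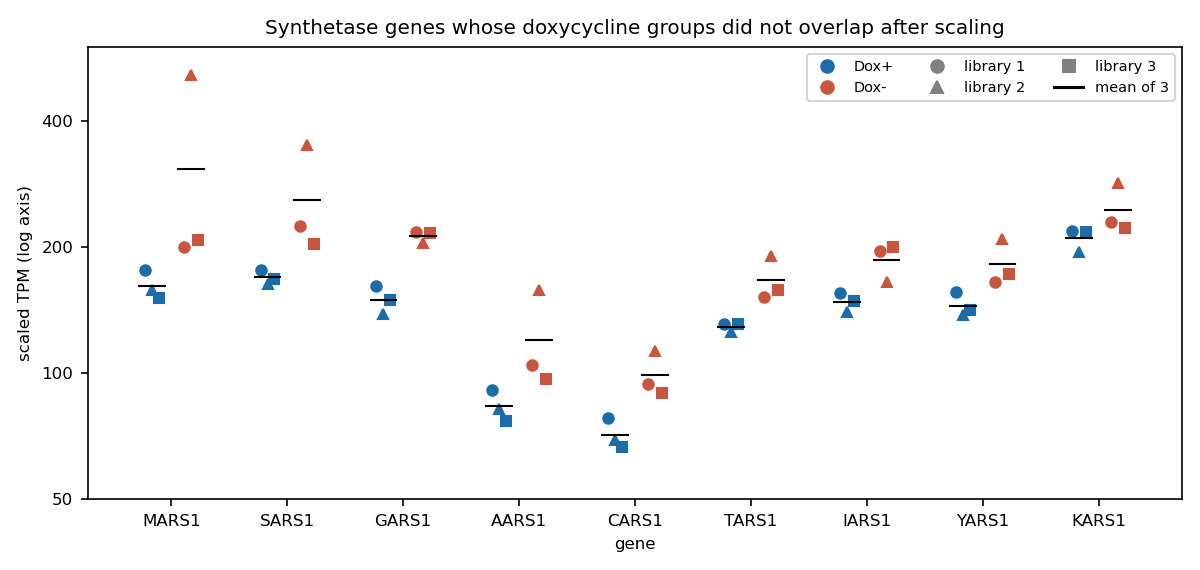
Scaled TPM (y axis, log scale) of the 9 synthetase genes whose doxycycline groups did not overlap, by library (circle, triangle and square for libraries 1, 2 and 3), with the mean of 3 libraries as a line. Every Dox+ point (blue) lies below every Dox- point (red) of its gene, and Dox- library 2 is the highest point in all but GARS1 and IARS1.

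The direction of these scaled differences could hardly change when a library was left out, because the 9 genes were taken for their separate groups. Much of the size of the differences was set by Dox- library 2. Without it the scaled log2 change was -0.33 for MARS1, -0.33 for SARS1, -0.27 for AARS1, -0.36 for CARS1, -0.26 for TARS1, -0.22 for YARS1 and -0.10 for KARS1, and it was -0.53 for GARS1 and -0.41 for IARS1, where that library was not the highest. The 12 ATF4-linked genes were then all negative, with a median of -0.33, and 11 members were lower at an unadjusted p under 0.05 by limma (2.46% of all genes were) with 0 past the adjusted threshold. Separate groups stay separate when a library is left out, apart from the new scaling, so the count of members apart can hardly go down. It was 9 in 4 of the 6 omissions (9.45% to 17.3% of all genes), 11 without Dox+ library 3 and 13 without Dox- library 2 (9.03% and 9.04% of all genes were apart and lower in these), the latter adding EPRS1, LARS1 and NARS1 among others. On the deposited values the order of the libraries was set by Dox- library 1: without it 8 members were apart and lower (AARS1, CARS1, GARS1, KARS1, MARS1, SARS1, TARS1 and YARS1), beside 11.9% of all genes. Without Dox- library 3, by contrast, which leaves the library filled by AL135790.1 and the one that stands apart, 25 members were apart and higher on the deposited values (49.5% of all genes were) and 12 passed the limma test (2 cytosolic and 10 mitochondrial, log2 changes from 0.91 to 1.48), when 18.4% of all genes passed. After scaling that omission gave 10 members apart and higher (3 cytosolic and 7 mitochondrial; 18.6% of all genes), 9 apart and lower (17.3%) and 0 called.

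**Figure D4:**
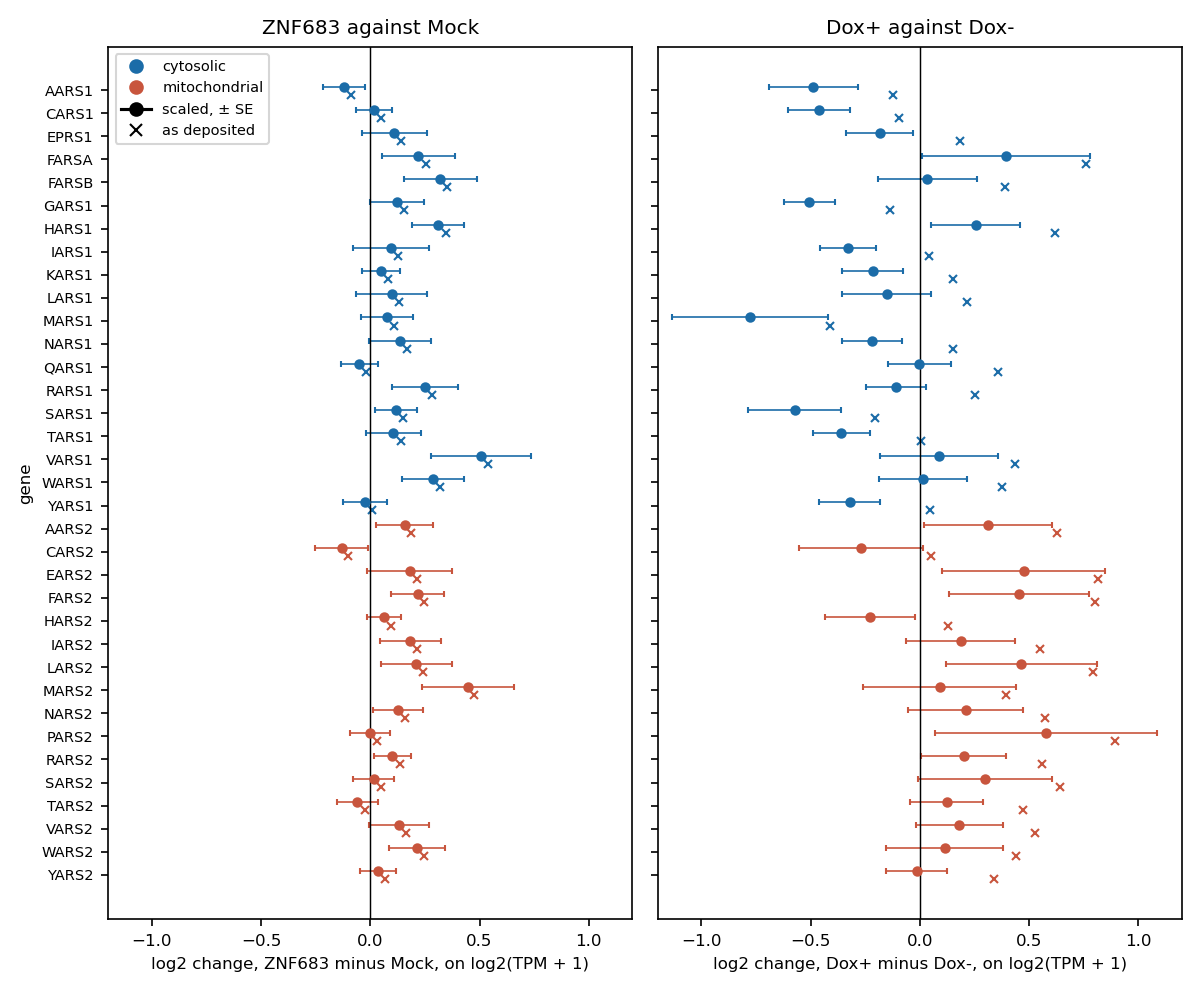
Log2 change of 35 members on log2(TPM + 1), ZNF683 minus Mock on the left and Dox+ minus Dox- on the right, after scaling (circles with ± 1 standard error) and as deposited (crosses), with cytosolic genes in blue and mitochondrial genes in red. For doxycycline the crosses lie to the right of the circles, and 14 of 19 cytosolic circles but 3 of 16 mitochondrial circles lie below 0.

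Set beside the promoter letters shown above, 6 of the 7 cytosolic genes that hold them were apart and lower after scaling (AARS1, CARS1, GARS1, IARS1, MARS1 and TARS1), with a median scaled log2 change of -0.46 over the 7. NARS1, the asparaginyl enzyme, was the seventh, at 164, 161 and 165 scaled TPM in Dox+ and 201, 163 and 210.3 scaled TPM in Dox-, where Dox- library 2 lay within the Dox+ range. Of the 9 cytosolic genes with a window but without the letters 2 were apart and lower (KARS1 and SARS1), and their median was -0.0031. Of the 4 without a window 1 was (YARS1). The letters were also searched in the 13 genes of the eIF2 kinase and ATF4 pathway described further on. Of these, 12 have a window and 2 held the letters (16.7%), CHAC1 and ASNS. CHAC1 was apart and lower after scaling, and the groups of ASNS overlapped. DDIT3, TRIB3, PSAT1 and SESN2 were apart and lower without the letters in their windows. In the mitochondrial gene with the letters, YARS2, scaled values were 27.1, 25.6 and 25.3 scaled TPM in Dox+ and 28.8, 23.1 and 27.2 scaled TPM in Dox-, with a log2 change of -0.01 ± 0.14. Genes without the letters included FARSA, which had 122, 147 and 197 scaled TPM in Dox+ and 110.3, 69.5 and 202 scaled TPM in Dox-, and HARS1, WARS1 and FARSB, with scaled log2 changes of 0.26 ± 0.20, 0.01 ± 0.20 and 0.03 ± 0.23. FARSA thus varied 2.91-fold among the 6 libraries, with Dox- library 2 the lowest. VARS1 had 20.1, 26.1 and 30.6 scaled TPM in Dox+ and 19.3, 19.8 and 34.8 scaled TPM in Dox- (scaled log2 change 0.09 ± 0.27). The 8 cytosolic genes of the multisynthetase complex, a particle whose enzymes include EPRS1, IARS1, KARS1, LARS1, MARS1, QARS1 and RARS1, all had negative scaled changes, from -0.78 (MARS1) to -0.0031 (QARS1), and 3 of the 8 were apart and lower, against 6 of the 12 cytosolic genes outside it. By catalytic fold, 4 of 9 class I and 5 of 10 class II cytosolic genes were apart and lower.

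The ratio of classes within a library needs no scaling between libraries. The geometric mean of the 20 cytosolic genes over that of the 17 mitochondrial genes was 4.84, 4.73 and 4.80 in the ZNF683 libraries and 4.93, 4.67 and 4.71 in the Mock libraries. These ranges overlapped and differed little. The same ratio was 5.64, 5.31 and 5.05 in Dox+ and 6.44, 10.5 and 5.79 in Dox-. The Dox+ libraries were all below the Dox- libraries, though Dox+ library 1 and Dox- library 3 were close. For the 12 ATF4-linked genes over the 8 other cytosolic genes the ratio was 1.41, 1.24 and 1.28 in ZNF683, 1.48, 1.46 and 1.39 in Mock, 1.66, 1.5 and 1.33 in Dox+ and 1.94, 2.38 and 1.62 in Dox-. Those ranges overlapped in both tables, through ZNF683 library 1 and through Dox+ library 1. The 8 other cytosolic genes over the mitochondrial genes gave 3.95 to 4.16 (ZNF683) against 3.72 to 3.90 (Mock), and 4.16 to 4.26 (Dox+) against 4.33, 6.21 and 4.33 (Dox-). These ranges were apart in both tables, higher in ZNF683 and lower in Dox+. The nearest libraries were close in both, and only Dox- library 2 stood far from the rest.

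**Figure D5:**
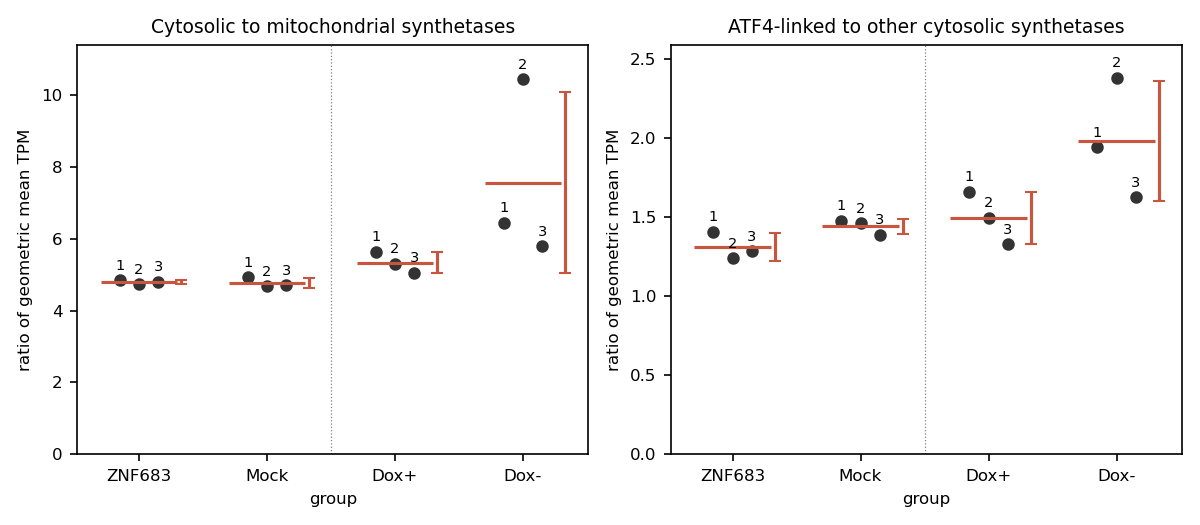
Ratio of geometric mean TPM within each library (points, numbered by library), for cytosolic over mitochondrial synthetases on the left and ATF4-linked over other cytosolic synthetases on the right, with the mean of 3 libraries (red line) and ± 1 SD beside it. The Dox+ points at 5.05 to 5.64 lie below the Dox- points at 5.79 to 10.5 on the left, and Dox+ and Dox- overlap on the right.

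For 14 amino acids both tables hold 1 cytosolic and 1 mitochondrial gene, which gives a ratio of each pair. Under doxycycline 5 of the 14 pairs were apart, all with the lower cytosolic share in Dox+ (IARS, LARS, NARS, RARS and TARS), and Dox- library 2 had the highest ratio in 11 of the 14. How often ratios of other gene pairs were apart was not computed, so the counts of pairs have no background share here. LARS1 over LARS2 was 8.70, 8.61 and 8.05 in Dox+ and 12.7, 19.1 and 10.4 in Dox-. TARS1 over TARS2 was 5.56, 5.22 and 5.05 in Dox+ and 6.92, 10.1 and 5.79 in Dox-. MARS1 over MARS2 had the widest range, at 37.1, 29.2 and 18.3 in Dox+ and 33.8, 163.5 and 23.4 in Dox-, and its groups overlapped. Between ZNF683 and Mock 1 of the 14 pairs was apart, IARS1 over IARS2, at 2.26, 2.26 and 2.26 against 2.29, 2.28 and 2.66, a small gap in which Mock library 3 stood out.

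HARS1 over HARS2 went the other way from most pairs in Dox- library 2, where it was 0.762 against 1.59 to 2.27 in the other 5 libraries. HARS1 was at 36.5 scaled TPM there, its lowest, and HARS2 at 47.8 scaled TPM, its highest. The pair starts head to head on chromosome 5: in RefSeq (GRCh38.p14) HARS1 starts at 140691370 on the minus strand and HARS2 at 140691455 on the plus strand, with 84 bases between them (59.5% G or C). In GENCODE v29 exons of the pair overlap on opposite strands, so reads there cannot be told apart where strand was not used, and the counting was not stated to use strand. The same holds for 18 of the 37 members, which share exon bases with a gene on the other strand. Among them MARS1 shares 355 bases (chr12, between 57516588 and 57517569), 5.05% of its exon bases and 27.2% of those of DDIT3, the stress gene that encodes CHOP. Scaled DDIT3 was 16.6, 12.5 and 13.6 scaled TPM in Dox+ and 21.6, 172 and 18.4 scaled TPM in Dox-, and the MARS1 values, including its Dox- library 2 value, are uncertain by that overlap.

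Other genes of the charging pathway were read from lists. Beside the counts below, 8.71% of all genes tested were apart and higher in ZNF683 and 8.51% apart and lower. For doxycycline after scaling, 5.82% were apart and higher and 5.86% apart and lower. Of the 3 scaffold genes of the multisynthetase complex (AIMP1, AIMP2 and EEF1E1), 0 passed the test in either comparison. AIMP2 had 74.4, 75.0 and 66.7 TPM in ZNF683 and 49.6, 44.3 and 64.8 TPM in Mock, with groups apart (log2 change 0.45 ± 0.15, limma adjusted p = 0.325), and was the 1 of 3 that was apart. In the doxycycline table it had 33.3, 40.8 and 58.9 scaled TPM in Dox+ and 29.7, 15.0 and 51.1 scaled TPM in Dox- after scaling, and its groups overlapped. Of the 5 cytosolic elongation factor genes, which hand charged tRNA to the ribosome or move it along, all 5 were lower in ZNF683, with 1 apart: EEF2 had 439.6, 429.5 and 417 TPM in ZNF683 and 500.0, 570.5 and 496 TPM in Mock (log2 change -0.28 ± 0.11, limma adjusted p = 0.352). Of 6 genes for mitochondrial charging and elongation 1 was apart and higher in ZNF683, TSFM, a mitochondrial elongation factor, with a log2 change of 0.30 ± 0.11, and 0 were apart under doxycycline after scaling. A list for editing of mischarged tRNA held 5 genes: DTD1, DTD2, AARSD1, TARS3 and the pseudogene PRORSD1P. PRORSD1P was apart and lower in the first table (log2 change -0.35 ± 0.16), and 0 were under doxycycline.

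Among 11 tRNA processing and export genes XPOT, the exporter of mature tRNA from the nucleus, was apart and lower in both comparisons, once scaled in the second. It had 54.8, 42.9 and 35.0 TPM in ZNF683 and 57.7, 61.3 and 66.0 TPM in Mock (log2 change -0.49 ± 0.16, limma adjusted p = 0.329), and its scaled values were 34.2, 33.7 and 27.2 scaled TPM in Dox+ and 56.6, 66.4 and 40.3 scaled TPM in Dox- (scaled log2 change -0.74 ± 0.21, limma adjusted p = 0.754). ELAC1 and HSD17B10, a tRNA 3′-end nuclease and a subunit of mitochondrial RNase P, were apart and higher in ZNF683, with log2 changes of 0.49 ± 0.14 and 0.22 ± 0.10, and the groups of HSD17B10 overlapped after scaling. Of the 11, 0 passed the adjusted test in either comparison.

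The 13 genes of the eIF2 kinase and ATF4 pathway were, like the ATF4-linked synthetases, mostly listed lower with doxycycline after scaling. Of the 13, 10 had a negative scaled log2 change, and 5 were apart and lower (DDIT3, TRIB3, CHAC1, PSAT1 and SESN2), beside 5.86% of genes tested. The median over the 13 was -0.77, with 0 passing the adjusted test. That median rested largely on Dox- library 2: without it the scaled median was -0.18 with 12 of 13 negative, and on the deposited values the median relative to all genes went from -0.73 to -0.12, with 8 of 13 positive. CHAC1, a glutathione-degrading enzyme and ATF4 target, had 13.6, 8.33 and 5.62 scaled TPM in Dox+ and 19.1, 29.8 and 24.0 scaled TPM in Dox- (scaled log2 change -1.37 ± 0.31). PSAT1, an enzyme of serine synthesis, had 283, 205 and 196 scaled TPM in Dox+ and 426, 412 and 343 scaled TPM in Dox- (scaled log2 change -0.80 ± 0.18), and neither gene rested on Dox- library 2 alone. ATF4 itself had 159.7, 93.3 and 97.3 scaled TPM in Dox+ and 137, 171 and 115 scaled TPM in Dox-, with overlapping groups, and ASNS, asparagine synthetase, had 36.5, 21.5 and 16.9 scaled TPM in Dox+ and 72.4, 104 and 29.9 scaled TPM in Dox-, where Dox+ library 1 was above Dox- library 3. PPP1R15A encodes a subunit that brings a phosphatase to eIF2. It had 9.45, 11.4 and 11.4 scaled TPM in Dox+ and 9.87, 335 and 10.8 scaled TPM in Dox-, high in Dox- library 2 alone. Between ZNF683 and Mock 2 of the 13 were apart, EIF2AK1 and PPP1R15A, both higher (8.71% of genes tested were apart and higher). Their log2 changes were 0.43 ± 0.12 and 0.37 ± 0.12, with limma adjusted p of 0.294 and 0.323. The part of this pathway in the synthetase values was not tested.

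The difference between the 2 comparisons was tested over all 12 libraries, on 14468 genes. With limma 0 of 37 members differed at an adjusted p under 0.05 (lowest 0.876; 0.0138% of genes tested did), and 0 at an unadjusted p under 0.05 (3.75%). After scaling these counts were 0 (lowest 0.939; 0.00691%) and 5 (3.53%). The cytosolic log2 changes after scaling had medians of 0.11 for ZNF683 and -0.22 for doxycycline, and neither this nor the lack of called genes shows that the members did or did not respond alike.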

How the data were processed

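RNA from 12 Jurkat libraries was sequenced. RNA was prepared with a Qiagen RNeasy kit and libraries with a NEBNext low-input kit, per the labels' protocols. The authors deposited 2 tables of TPM per gene symbol. Among tools, the submitters' processing notes list kallisto (0.46.0) and DESeq2 (1.22.2) but not what each was used for. Genome build, transcript annotation and use of strand are not given in the sources used here. TPM keeps no read number, so depth is unknown, no counting interval was computed and no count model was run.

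Groups came from the sample titles. The members and all gene lists were chosen with earlier results of these data known. Members described singly were the 6 cytosolic and 4 mitochondrial genes with the smallest p in each comparison (some by log2 change alone), those highest or lowest in level, and, added after their values were seen, those whose groups did not overlap and NARS1, CARS2, HARS2, YARS2, VARS2 and members given by a pair ratio. The counts, medians and ratios of the classes cover all 37 members, of which 2 are not reported here singly or drawn in figures. Companion lists follow general knowledge.

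Each table was fitted alone with limma 3.58.1 (R 4.3.3) on log2(TPM + 1), over the genes that averaged 1 TPM or more in its 6 libraries (mean-variance trend, two-sided, Benjamini-Hochberg adjustment over all genes tested, threshold 0.05). Log2 changes are given ± standard error and understate the change of low genes. Groups are called apart or non-overlapping where every library of a group lies above every library of the other. For 3 libraries against 3, no two-sided exact permutation test can go below p = 0.1. The 2 tables were set against each other only in a contrast of both effects. Gene positions are from GENCODE v29 (GRCh38), matched by symbol, and promoter windows from RefSeq (GRCh38.p14). The procedure was tested on simulated data drawn with each table's gene means and spread. Each gene was drawn independently on the deposited scale, so shifts of many genes in 1 library and scaled values were not covered. Of 100 genes changed by a log2 of 1, it called 87 for ZNF683 against Mock and 1 for Dox+ against Dox-. Of 100 genes changed by a log2 of 2, it called 99 and 35. It also called 16 and 4 unchanged genes, and changes below a log2 of 1 were not simulated. The lack of called members under doxycycline thus does not show that they were unchanged. Alternatives were median-of-ratios scaling, a pseudocount of 0.1, no filter on low values, robust limma, no trend, a replicate block, leaving out each library, and, chosen after seeing the data, scaling together with leaving out each library.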

Additional observations from a re-analysis of the deposited data

How the results depend on the processing

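By limma, 0 members passed the adjusted threshold in either comparison or in the test of their difference under the alternatives run, except Dox+ against Dox- as deposited without Dox- library 3, where 12 did (0 in the other omissions). Outside the omissions, the members higher in ZNF683 at an unadjusted p under 0.05 went from 1 to 0 without the trend, and those higher in Dox+ from 2 to 0 with scaling, 4 with a pseudocount of 0.1 and 0 with no filter. With scaling, 6 members were lower in Dox+ at that p and 9 were apart and lower, against 0 and 0 as deposited, and the 1 member apart and higher in ZNF683 was lost.

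Leaving out each library in turn, as deposited and after scaling, gave 0 to 12 members higher in ZNF683 at an unadjusted p under 0.05, 0 to 21 apart and higher, and 0 to 1 apart and lower. For Dox+ the ranges were 0 to 21 higher and 0 to 11 lower at that p, 0 to 25 apart and higher, and 0 to 13 apart and lower. The upper ends came without Mock library 3 in the first comparison, when 13.8% of all genes were higher at that p and 26.7% apart and higher. The member apart and lower was AARS1 without ZNF683 library 1 (11.2% of all genes as deposited) and CARS2 without Mock library 1 (15.5%). In the second they came without Dox- library 3 for higher (35.9% of all genes at that p, 49.5% apart) and, after scaling, without Dox- library 2 for lower (2.46% and 9.04%).

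The Dox+ log2 change was negative for 5 of the 37 members as deposited and for 18 after scaling. Of the members described by p in this comparison, level or separate groups, 4 turned with scaling. They went to -0.33 for IARS1, -0.22 for KARS1, -0.36 for TARS1 and -0.32 for YARS1. Other members that turned included NARS1, CARS2, HARS2 and YARS2, to -0.22, -0.27, -0.23 and -0.01. Over all omissions, as deposited and scaled, the Dox+ log2 change switched sign at least once for 15 of the members described by p in this comparison, level or separate groups. It ran from -0.62 to 0.18 for AARS1, -0.53 to 0.085 for CARS1, -0.56 to 0.091 for GARS1, -0.41 to 0.31 for IARS1, -0.28 to 0.35 for KARS1, -1.005 to 0.12 for MARS1, -0.72 to 0.12 for SARS1, -0.41 to 0.19 for TARS1 and -0.38 to 0.24 for YARS1. For FARSB it ran from -0.13 to 0.78, for VARS1 from -0.048 to 0.91 and for WARS1 from -0.12 to 0.77. The mitochondrial ranges were -0.10 to 0.94 for IARS2, -0.24 to 0.87 for MARS2 and -0.045 to 1.48 for PARS2. The cause was not tested. Of the other single-member values under an alternative, 464 kept their direction and side of the threshold.

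Libraries with the same replicate number deviated together with correlations of -0.21, 0.07 and -0.25 in the first table and 0.08, 0.05 and 0.36 in the second. Those with different numbers ran from -0.18 to 0.31 and from -0.33 to 0.20. Deviations from a mean of 3 libraries are bound to each other, so these values do not settle whether the numbers pair the libraries. With the number as a replicate block, 0 members were called in either comparison or in their difference, and 0 had an unadjusted p under 0.05, higher or lower, in either comparison. Read depth is unknown from TPM, so how far counting error limits the low mitochondrial genes cannot be given.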
